A study of Mus musculus with 12 samples.

Results

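The genes described are the signalling chains of the B cell receptor (BCR) and the proteins that act next to them: the chains Cd79a and Cd79b, the kinases Syk, Lyn, Blk, Fyn and Btk, the adaptor Blnk, the phospholipase Plcg2 and the exchange factor Vav1. They were chosen by name, and each was read from the probe set whose platform annotation gives that symbol alone (with several, the one with the highest mean). Of the 10 genes, 9 were found and all of these 9 passed the filter on dim probe sets, out of 12961 genes tested. Lyn had no such probe set and is named only. Primary B lymphoma cultures came from l-MYC;B1-8f mice (C57BL/6J x BALB/c), so all groups carry the MYC transgene and started with a B1-8 heavy chain that Cre can remove. TAT-Cre, a cell-permeable recombinase, ablated the receptor, and cells were sorted from mixed cultures after 4 days. The 4 groups were BCR-negative cells grown with CHIR99021, an inhibitor of the kinase GSK3, then untreated BCR-independent cells, untreated BCR-negative cells and untreated BCR-positive cells. The BCR-independent lines arose when BCR-negative tumour cells were kept in culture for long. They were sorted from mixtures with BCR-positive cells of their own tumour, whereas the other groups came from mixtures of BCR-positive with BCR-negative cells, and each tumour gave 1 independent clone (clone 8 of tumour 2567, clone 7 of tumour 2646 and clone 1 of tumour 2676). Each of the 3 tumours gave 1 array to every group, 12 arrays in all, with n = 3 per group. Values are the deposited log2 signals of Affymetrix Mouse Gene 1.1 ST arrays. A level is read within 1 probe set only, since probe sets of different genes are not on a common scale.

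As background, the BCR consists of membrane immunoglobulin, which binds antigen, and the CD79A and CD79B heterodimer, which carries the signal through tyrosines in its cytoplasmic tails. SRC-family kinases (LYN, BLK and FYN) phosphorylate those tyrosines, SYK docks on them, and SYK then phosphorylates the adaptor BLNK. BLNK brings together BTK, PLCG2 and VAV1, which pass the signal on to calcium, protein kinase C and RAC. Without the heavy chain the heterodimer is held inside the cell, so its transcripts can be measured in cells with no receptor at the surface.

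Arrays and labels were checked first. Array medians lay between 3.32 and 3.44 log2 units. The probe set for the V gene segment used by the B1-8 chain fell to 6.44 ± 0.57 in BCR-negative cells, against 9.62 ± 0.30 in BCR-positive cells (SD, n = 3; adjusted p = 0.0241, and above 0.05 with any 1 tumour left out). Its mean was 5.77 ± 0.73 in the CHIR99021 arrays and 4.04 ± 0.28 in the BCR-independent ones. V segments of near-identical sequence may share this signal. Why more of it was left in the BCR-negative groups than in the BCR-independent clones was not tested. The probe set of Ighm, the constant region of the mu heavy chain, was dim in all groups, with means from 3.74 to 4.09, and was not called for receptor loss, with 3.76 ± 0.26 in BCR-negative cells and 4.09 ± 0.10 in BCR-positive cells (difference -0.33, adjusted p = 0.999). Besides the 2 CD79 chains, the B cell markers Pax5, Cd22, Ebf1 and Cd37 exceeded the 60th percentile of every array, whereas Ms4a1 (CD20) read between 2.55 and 3.19 and exceeded it on none. Of 30 measured markers of 8 other cell types, 21 exceeded the 60th percentile on 0 arrays and 4 on all 12 arrays: Itgam, Sdc1, Xbp1 and Col1a1. The titles of the untreated BCR-negative and BCR-positive arrays of tumours 2646 and 2676 carry a mark, (2), that the labels leave unexplained. In tumour 2567 no array carries it, so only that tumour compares the treated or independent arrays with those groups free of the mark.

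Upstream sequence is shown for Cd79a, Blnk and Vav1, whose 250 bases before the start lie wholly outside the annotated gene and which share an ETS-type motif, so that the members' promoters can be set side by side. The RefSeq table (GRCm38.p6) held 8 entries for 7 of the 10 genes, 5′ to 3′ on the gene's strand, and none for Cd79b, Lyn or Blk. Capitals mark matches on either strand to the octamer ATGCAAAT, the ETS-type motif AGGAAGT, the E-protein box CAGNTG, the LEF/TCF-type motif CTTTGA or the FOXO-type motif GTAAACA, a set chosen after the sequences were seen.
Cd79a, chr7:24897247-24897496, plus strand: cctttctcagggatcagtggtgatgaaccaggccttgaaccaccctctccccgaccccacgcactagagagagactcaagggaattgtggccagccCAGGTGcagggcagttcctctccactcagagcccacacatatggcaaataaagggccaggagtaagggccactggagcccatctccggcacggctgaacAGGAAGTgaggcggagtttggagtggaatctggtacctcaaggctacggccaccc
Blnk, chr19:40994222-40994471, minus strand: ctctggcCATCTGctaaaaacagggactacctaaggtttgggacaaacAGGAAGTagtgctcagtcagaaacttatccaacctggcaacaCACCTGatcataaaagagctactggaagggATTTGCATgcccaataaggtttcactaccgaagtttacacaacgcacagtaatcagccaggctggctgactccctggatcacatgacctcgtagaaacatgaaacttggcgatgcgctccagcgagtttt
Vav1, chr17:57278850-57279099, plus strand: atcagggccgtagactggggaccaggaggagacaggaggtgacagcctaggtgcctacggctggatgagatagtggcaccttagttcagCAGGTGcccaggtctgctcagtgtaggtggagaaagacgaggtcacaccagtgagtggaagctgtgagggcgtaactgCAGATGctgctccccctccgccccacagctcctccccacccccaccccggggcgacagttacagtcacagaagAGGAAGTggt
The ETS-type motif begins 55 bases before the start in Cd79a, 202 bases before it in Blnk and 10 bases before it in Vav1. Of all 32851 promoter windows of this length, 7.69% held that motif, 1.6% the octamer, 44.8% the E-protein box, 13.8% the LEF/TCF-type motif and 3.17% the FOXO-type motif. Among the 8 entries these were held by 3, 1, 6, 2 and 0, in that order. Both LEF/TCF-type matches lie inside annotated genes and are shown as 30-base sites, because CHIR99021 is used in the study and GSK3 inhibition is known to stabilise the LEF/TCF partner beta-catenin.
Syk, second entry, chr13:52596852-52596881, plus strand: tgtcttgcttgctgacaCTTTGAggaaaag
Fyn, chr10:39369691-39369720, plus strand: cctcagcgggccCTTTGAtagggcagaaag
No motif matches overlapped, and a match is a description of letters, not of binding.

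No member passed limma's test over all genes in any of the 6 pairs of groups (adjusted p under 0.05, Benjamini-Hochberg over 12961 genes), a total of 54 tests. Syk came closest: it was lower in CHIR99021-treated than in untreated BCR-negative cells in all 3 tumours, with an adjusted p of 0.0551. The 2 receptor chains had differences close to 0 for loss of the receptor, with intervals that reach 0.49, and Blk had the largest point differences. Values below are log2 differences from limma with its standard error (SE), a 95% interval that is not adjusted for the number of genes, and an adjusted p.

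**Figure D1:**
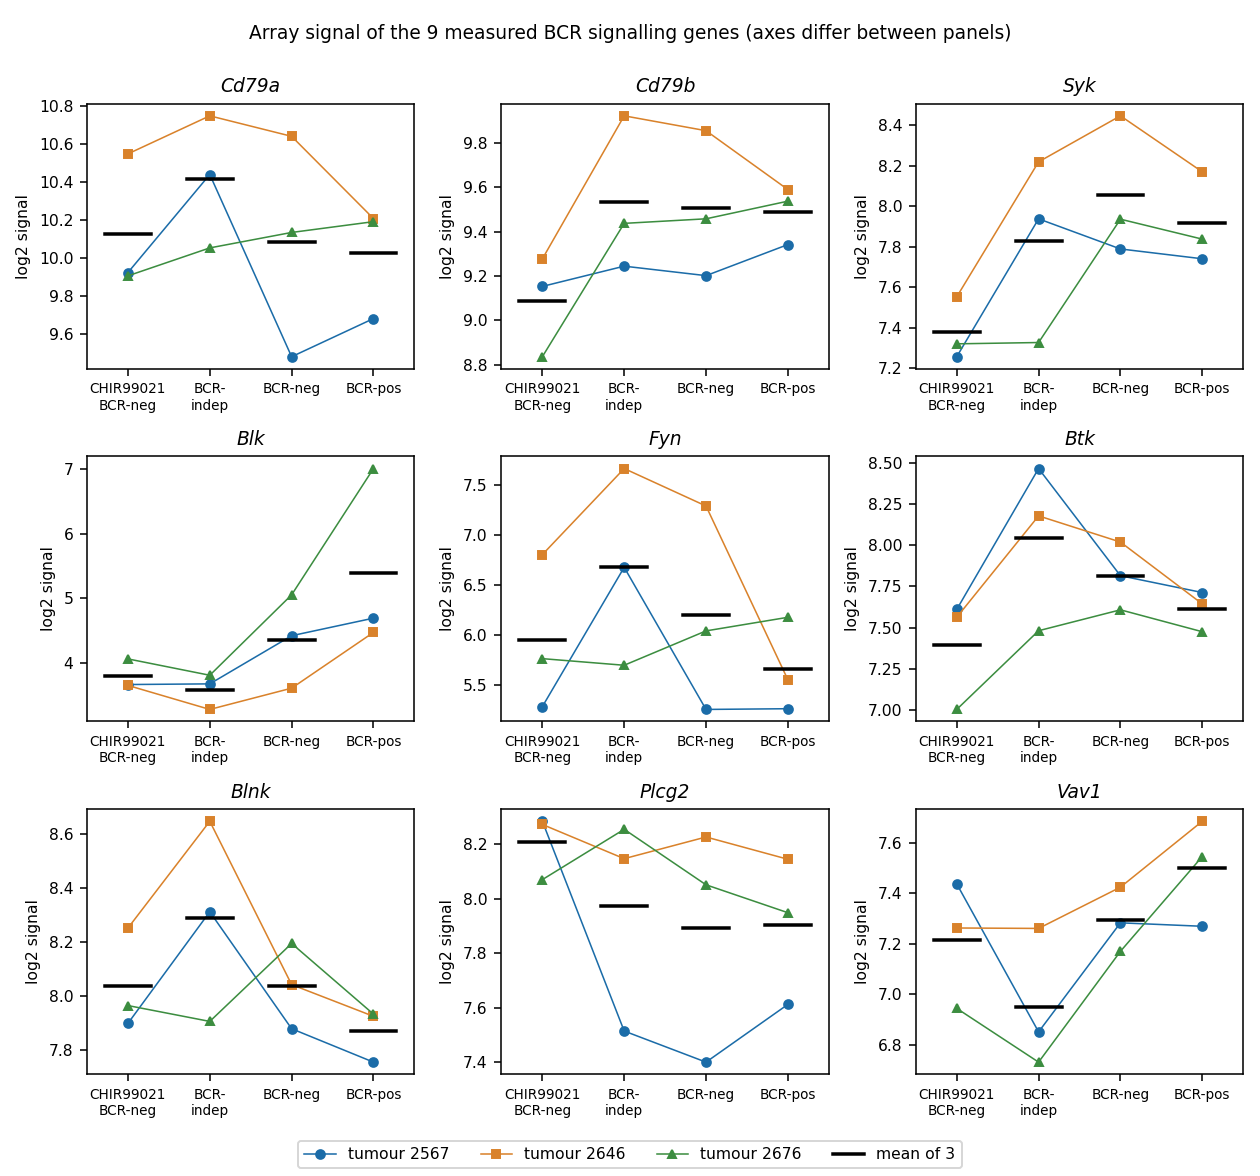
Log2 array signal of the 9 measured genes in the 4 groups, 1 panel per gene with its own axis; points are arrays, coloured by tumour and joined within a tumour, and black bars are means of 3. Syk in CHIR99021-treated BCR-negative cells sits between 7.26 and 7.55, below all 6 untreated BCR-negative and BCR-positive arrays.

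The receptor chains come first. Cd79a encodes Ig-alpha. Its log2 signals in tumours 2567, 2646 and 2676 were 9.92, 10.55 and 9.91 in CHIR99021-treated BCR-negative cells. In BCR-independent cells they were 10.44, 10.75 and 10.05, in untreated BCR-negative cells 9.48, 10.64 and 10.13, and in BCR-positive cells 9.68, 10.21 and 10.19. All 4 groups overlap, and tumour 2646 is the highest in each. BCR-negative cells differed from BCR-positive cells by 0.058 (SE 0.19, adjusted p = 0.999), with an interval from -0.37 to 0.49, and the tumours went both ways. The widest difference was that of BCR-independent over BCR-positive cells, 0.39 (SE 0.19, interval -0.046 to 0.82, adjusted p = 0.561). It was 0.76 in tumour 2567 and 0.54 in tumour 2646 but -0.14 in tumour 2676. With the title mark in the model it was 0.77 (adjusted p = 0.192), and that of BCR-independent over BCR-negative cells was 0.71 (adjusted p = 0.276), against 0.33 without the mark. By group mean the order was BCR-independent, treated BCR-negative, untreated BCR-negative and BCR-positive, and neighbouring means lay closer together than the SD within a group.

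Cd79b encodes Ig-beta, the partner of Ig-alpha. It read 9.15, 9.28 and 8.84 in treated BCR-negative cells in the same order of tumours. BCR-independent cells gave 9.24, 9.92 and 9.44, untreated BCR-negative cells 9.20, 9.86 and 9.46, and BCR-positive cells 9.34, 9.59 and 9.54. The treated arrays lie below every BCR-positive array and overlap with the untreated BCR-negative ones. CHIR99021-treated cells were lower than untreated BCR-negative cells by a log2 difference of -0.42 (SE 0.13, interval -0.72 to -0.11, adjusted p = 0.154). That difference was -0.58 in tumour 2646 and -0.62 in tumour 2676 but -0.049 in tumour 2567, the tumour without the title mark. Against BCR-positive cells it was -0.40 (adjusted p = 0.191) and against BCR-independent cells -0.45 (adjusted p = 0.233). Among the 3 other groups the means of 9.54 in BCR-independent, 9.51 in BCR-negative and 9.49 in BCR-positive cells differed by less than the SD of any of them. For loss of the receptor the Cd79b difference was 0.015 (interval -0.29 to 0.32, adjusted p = 0.999).

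Syk encodes the kinase that binds the phosphorylated tails of the heterodimer. In CHIR99021-treated BCR-negative cells its signal was 7.26, 7.55 and 7.32 in tumours 2567, 2646 and 2676. It was 7.94, 8.22 and 7.33 in BCR-independent cells, 7.79, 8.45 and 7.94 in untreated BCR-negative cells and 7.74, 8.17 and 7.84 in BCR-positive cells. Treated arrays do not overlap with untreated BCR-negative or BCR-positive arrays, whereas the BCR-independent clone of tumour 2676 lies within the treated range. Treated minus untreated BCR-negative cells was -0.68 (SE 0.15, interval -1.01 to -0.35, adjusted p = 0.0551), or 37.6% less signal, at -0.53, -0.89 and -0.62 in the 3 tumours. The call depends on the setting: the adjusted p was 0.0494 with a stricter filter, 0.046 with an intensity trend, 0.0434 and 0.0457 after quantile and cyclic loess normalization, and 0.00467 with array weights. With the mark in the model the difference was -0.46 (adjusted p = 0.336), and in tumour 2567, which has no mark, -0.53. Treated cells were also lower than BCR-positive cells in all 3 tumours, by a difference of -0.54 (SE 0.15, adjusted p = 0.125, and -0.32 with the mark in the model). Against BCR-independent cells the difference was -0.45 (SE 0.15, adjusted p = 0.273), and the single values were -0.68 and -0.67 in tumours 2567 and 2646 and -0.0065 in tumour 2676. Neither receptor loss (0.14, interval -0.19 to 0.47) nor BCR independence relative to BCR-negative cells (-0.23, interval -0.56 to 0.10) passed the test.

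The summed signal of the 7 measured B cell markers, on a log2 scale, spanned 11.31 to 12.04 over treated arrays and 11.47 to 12.39 over untreated BCR-negative arrays. That list holds Cd79a and Cd79b themselves. Of its other 5 measured genes Ebf1 averaged 7.789 in treated and 9.002 in untreated BCR-negative cells, Pax5 8.09 and 8.54, Cd22 8.23 and 8.60, Cd37 9.40 and 9.54, and Ms4a1 2.73 and 2.67. The T cell sum spanned 5.47 to 5.57 in treated and 5.33 to 5.46 in untreated BCR-negative cells, and that of monocytes and macrophages 5.91 to 6.27 and 5.74 to 6.67. Of the 5 measured T cell markers 4 exceeded the 60th percentile on no array and 0 on every array. Their sum is thus made up of dim signals, and no cell number is read from it. The part of these values in the Syk, Cd79b and Btk differences was not tested, and in sorted bulk samples fewer expressing cells and less RNA per cell cannot be told apart.

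The SRC-family kinases had the widest ranges over the 12 arrays, 3.72 log2 units for Blk and 2.41 for Fyn, beside a median of 0.65 over all genes. Blk, a SRC-family kinase largely restricted to B lineage cells, had signals of 3.67, 3.65 and 4.06 in CHIR99021-treated BCR-negative cells. BCR-independent cells gave 3.68, 3.28 and 3.81, untreated BCR-negative cells 4.42, 3.61 and 5.05, and BCR-positive cells 4.69, 4.47 and 7.01. BCR-positive arrays were above every treated and every BCR-independent array, and the array of tumour 2676 stands far above the rest of that group. Blk lies close to the array medians in the groups where it is low: 1 of 3 treated and 0 of 3 BCR-independent arrays exceeded their 60th percentile, against 2 of 3 untreated BCR-negative and 3 of 3 BCR-positive arrays. BCR-independent minus BCR-positive cells was -1.80 (SE 0.39, interval -2.67 to -0.93, adjusted p = 0.227), at -1.02, -1.19 and -3.20 in the 3 tumours. Treated BCR-negative minus BCR-positive cells was -1.60 (SE 0.39, interval -2.47 to -0.73, adjusted p = 0.0904), at -1.03, -0.82 and -2.94. Untreated BCR-negative minus BCR-positive cells was -1.03 (SE 0.39, interval -1.90 to -0.16, adjusted p = 0.999), negative in 3 of 3 tumours at -0.27, -0.86 and -1.95. Tumour 2676 decides much of these sizes: without it they were -1.10, -0.92 and -0.57. By mean the order was BCR-positive, BCR-negative, treated BCR-negative and BCR-independent. Treated minus BCR-independent cells was 0.20 (SE 0.39), and untreated BCR-negative arrays overlap with those of every other group.

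Fyn, a broadly expressed SRC-family kinase, gave 5.28, 6.80 and 5.76 with CHIR99021 in BCR-negative cells and 6.68, 7.66 and 5.70 in the BCR-independent clones. Untreated BCR-negative cells read 5.25, 7.29 and 6.04, and BCR-positive cells 5.26, 5.55 and 6.18. The pattern differs from tumour to tumour. In tumour 2646 the BCR-negative array exceeded the BCR-positive one by 1.74, against -0.0073 in tumour 2567 and -0.14 in tumour 2676. In tumour 2567 the BCR-independent clone exceeded untreated BCR-negative cells by 1.42, against 0.37 in tumour 2646 and -0.34 in tumour 2676. The widest fitted difference, BCR-independent minus BCR-positive cells, was 1.02 (SE 0.43, interval 0.054 to 1.98, adjusted p = 0.493), positive in 2 of 3 tumours and 0.47 without tumour 2646. Receptor loss gave 0.53 (adjusted p = 0.999), and -0.072 without tumour 2646.

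Btk is the TEC-family kinase that activates PLCG2. In tumours 2567, 2646 and 2676 treated BCR-negative cells read 7.61, 7.56 and 7.00, BCR-independent cells 8.47, 8.18 and 7.48, untreated BCR-negative cells 7.81, 8.02 and 7.61, and BCR-positive cells 7.71, 7.64 and 7.47. Within every tumour the treated array is the lowest of the 4. Treated minus BCR-independent cells gave -0.65 (SE 0.14, interval -0.97 to -0.33, adjusted p = 0.143), at -0.86, -0.62 and -0.48 in the 3 tumours, between arrays that all lack the title mark. Treated minus untreated BCR-negative cells was -0.42 (SE 0.14, interval -0.74 to -0.10, adjusted p = 0.175), at -0.20, -0.46 and -0.60. That difference was -0.15 with the mark in the model. BCR-independent cells exceeded BCR-positive cells by 0.43 (SE 0.14, interval 0.11 to 0.75, adjusted p = 0.401), at 0.75, 0.53 and 0.0061. With the mark in the model this difference was 0.70 (adjusted p = 0.149). Receptor loss gave 0.20 (SE 0.14, adjusted p = 0.999), positive in 3 of 3 tumours.

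The adaptor and the effectors follow. Blnk, the scaffold phosphorylated by SYK, gave 7.90, 8.25 and 7.97 with CHIR99021 in BCR-negative cells and 8.31, 8.65 and 7.91 in BCR-independent cells. It gave 7.88, 8.04 and 8.20 in untreated BCR-negative cells and 7.76, 7.93 and 7.93 in BCR-positive cells. Groups overlap, and the BCR-independent clones of tumours 2567 and 2646 hold the 2 highest signals of the 12 arrays. The mean in treated cells differed from that in untreated BCR-negative cells by -0.0002 (interval -0.34 to 0.34, adjusted p = 0.9995). BCR-independent minus BCR-positive cells was 0.42 (SE 0.15, interval 0.074 to 0.76, adjusted p = 0.442), at 0.56, 0.72 and -0.027. Receptor loss gave 0.17 (interval -0.18 to 0.51), positive in 3 of 3 tumours and short of the threshold (adjusted p = 0.999).

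Plcg2, the phospholipase that generates the calcium signal, gave 8.28, 8.27 and 8.07 with CHIR99021 in BCR-negative cells. It gave 7.51, 8.15 and 8.25 in the BCR-independent clones, 7.40, 8.23 and 8.05 in untreated BCR-negative cells and 7.61, 8.14 and 7.95 in BCR-positive cells. The 3 untreated arrays of tumour 2567 are the lowest of all 12, and its treated array is the highest. Treated minus untreated BCR-negative cells was 0.32 (SE 0.17, interval -0.064 to 0.70, adjusted p = 0.402), at 0.88 in tumour 2567 but 0.046 and 0.019 in tumours 2646 and 2676. It was 0.0325 without tumour 2567 and 0.52 with the mark in the model. Receptor loss gave -0.0093 (interval -0.39 to 0.37), and the 3 untreated groups differed by less than their SDs.

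Vav1, which activates RAC, gave 7.44, 7.26 and 6.94 with CHIR99021 in BCR-negative cells and 6.85, 7.26 and 6.73 in the BCR-independent clones. Untreated BCR-negative cells gave 7.28, 7.42 and 7.17, and BCR-positive cells 7.27, 7.69 and 7.55. In every tumour the BCR-independent clone is the lowest of the 4 arrays, in tumour 2646 by a narrow margin. No BCR-independent array reached the lowest BCR-positive one, with 7.26 as the highest of the clones and 7.27 as that lowest value. BCR-independent minus BCR-positive cells was -0.55 (SE 0.14, interval -0.86 to -0.24, adjusted p = 0.304), at -0.42, -0.43 and -0.82. With the mark in the model it was -0.37. Against untreated BCR-negative cells the difference was -0.35 (SE 0.14, interval -0.66 to -0.034, adjusted p = 0.814), negative in 3 of 3 tumours and -0.16 with the mark in the model. Treated minus untreated BCR-negative cells was -0.078 (interval -0.39 to 0.23), and receptor loss gave -0.21 (interval -0.52 to 0.10).

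**Figure D2:**
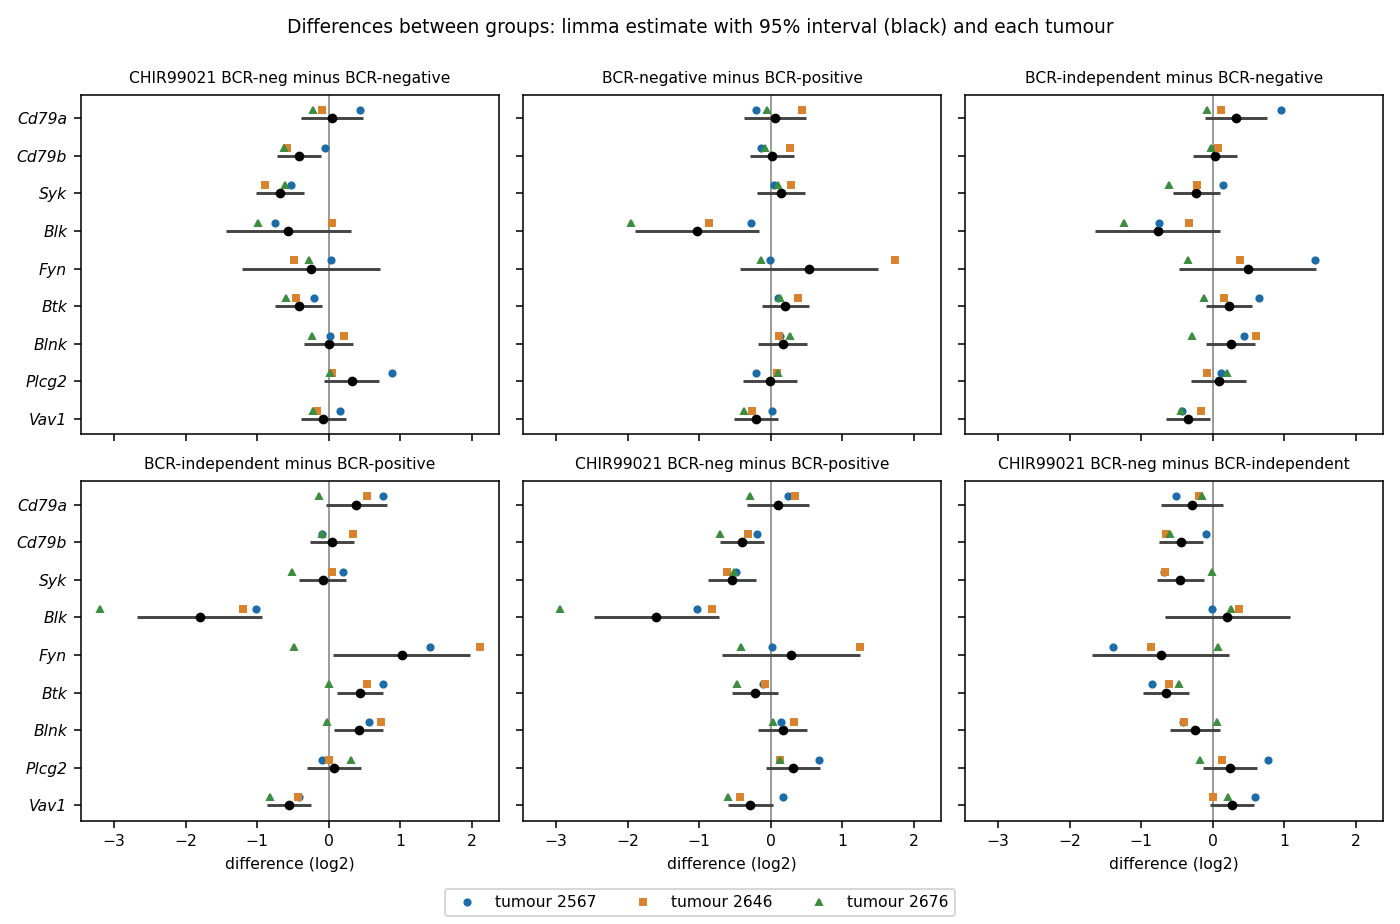
Log2 differences of the 9 genes in the 6 pairs of groups, first-named minus second-named group; black points and lines are limma estimates with 95% intervals (n = 3 arrays per group) and coloured points are single tumours. For receptor loss all intervals but that of Blk include 0, and for CHIR99021-treated against untreated BCR-negative cells those of Cd79b, Syk and Btk lie below 0.

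Counts over the 9 genes are set beside all genes tested, since the 6 comparisons share arrays and cannot be read as separate evidence. Between CHIR99021-treated and untreated BCR-negative cells 0 of 9 genes were called by limma, where 1.91% of all genes were. There 3 genes had an unadjusted p under 0.05 (Cd79b, Syk and Btk), against 16.6% of all genes, and 1 had groups that did not overlap (Syk), against 10.6%. The median difference of the 9 was -0.25, beside 0.026 over all genes, and 7 of 9 were below 0. In 4 of 9 the 3 tumours went the same way, beside 41.4% of all genes.

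At receptor loss 0 of 9 were called, beside 0.00772% of all genes, and only Blk had an unadjusted p under 0.05, beside 3.19%. The median difference was 0.058, beside -0.0009 over all genes, with 6 above 0 and 3 below. In 4 of 9 the tumours went the same way, beside 24.4% of all genes. No member had groups that did not overlap, beside 4.51% of all genes. Between BCR-independent and BCR-negative cells 0 of 9 were called, beside 0.00772%, and Vav1 alone had an unadjusted p under 0.05, beside 5.99%. The median difference was 0.0795, beside 0.017 over all genes, and in 2 of 9 the tumours shared a direction, beside 26.2%. Here 0 members had groups that did not overlap, beside 4.54%.

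The median size of a member's difference was largest between BCR-independent and BCR-positive cells, at 0.42, beside 0.10 over all genes. The background depends on how many dim genes are kept. For this comparison the median SE over all genes was 0.117, against 0.135 with the filter at the 60th percentile and 0.0986 with no filter. Limma again called 0 of 9, beside 0.0849% of all genes. An unadjusted p under 0.05 was found for 5 of 9 (Blk, Fyn, Btk, Blnk and Vav1), beside 9.61%, and groups did not overlap for Blk and Vav1, beside 7.35%. Those 5 did not share a direction, with Blk and Vav1 below 0 and Fyn, Btk and Blnk above it. The tumours went the same way in 3 of 9, beside 26.1%. In treated BCR-negative against BCR-positive cells 0 of 9 were called, beside 0.802%. Cd79b, Syk and Blk had an unadjusted p under 0.05, beside 15.6% of all genes, and the same 3 had groups that did not overlap, beside 11.5%, and in 6 of 9 the tumours shared a direction, beside 34.5%. In treated BCR-negative against BCR-independent cells 0 of 9 were called, beside 0.162%, and Cd79b, Syk and Btk had an unadjusted p under 0.05, beside 12.3%. No member had groups that did not overlap, beside 8.19%, and in 5 of 9 the tumours went the same way, beside 35.9%.

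**Figure D3:**
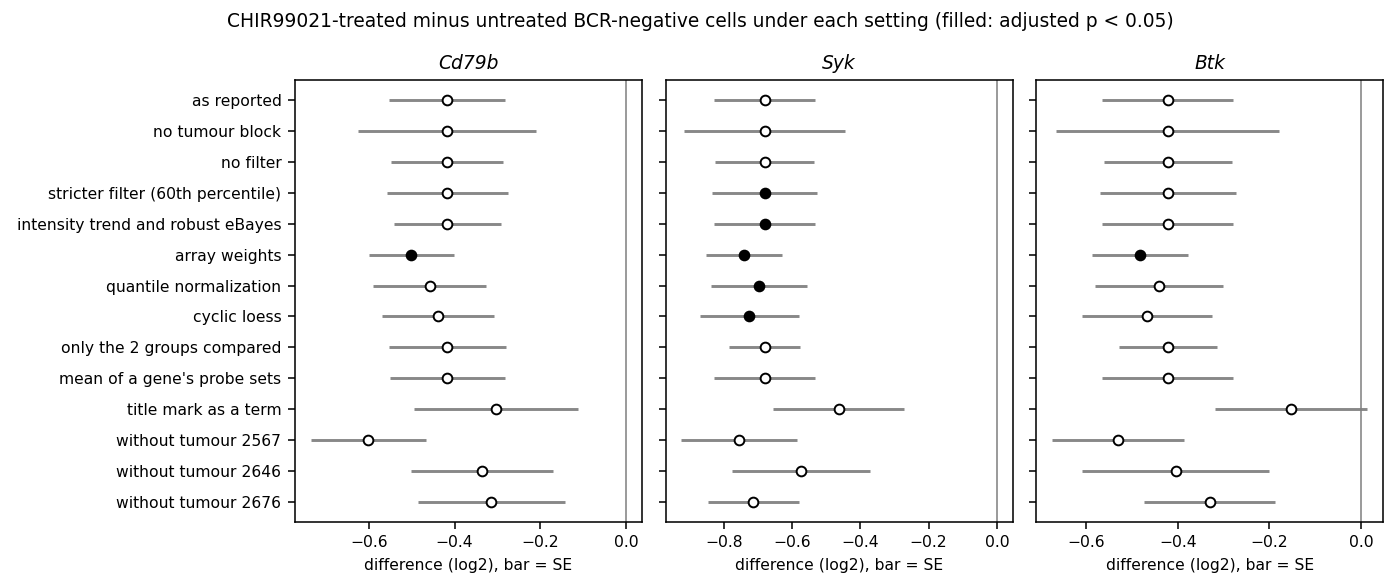
Log2 difference of CHIR99021-treated minus untreated BCR-negative cells for Cd79b, Syk and Btk under each setting; bars are the SE and filled points have an adjusted p under 0.05. Syk is filled under 5 of the 13 alternatives and Cd79b and Btk under 1, and all estimates lie below 0.

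The arrays varied by tumour as well as by group. The share of the variance over 12 arrays that lay between tumours was 55.6% for Cd79a, 50.1% for Plcg2 and 22.2% for Blnk, with a median of 39.8% over all genes. The share between groups was 53.9% for Vav1, 52.8% for Blk and 49.2% for Syk, beside a median of 20.7%. Cd79a (16.3%) and Plcg2 (18.4%) were below that median. Tumour 2646 had the highest mean for 7 of the 9 genes, tumour 2567 for Btk (7.90) and tumour 2676 for Blk (4.98). What remains after tumour and group had an SD of 0.65 for Fyn and 0.59 for Blk but 0.18 to 0.28 for the other 7, beside a median of 0.145 over all genes of 12961. The 12961 genes behind that median include dim ones, and 8764 genes remained with the filter at the 60th percentile. The SE of a difference was 0.43 for Fyn and 0.39 for Blk, against 0.13 to 0.19 for the other 7.

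**Figure D4:**
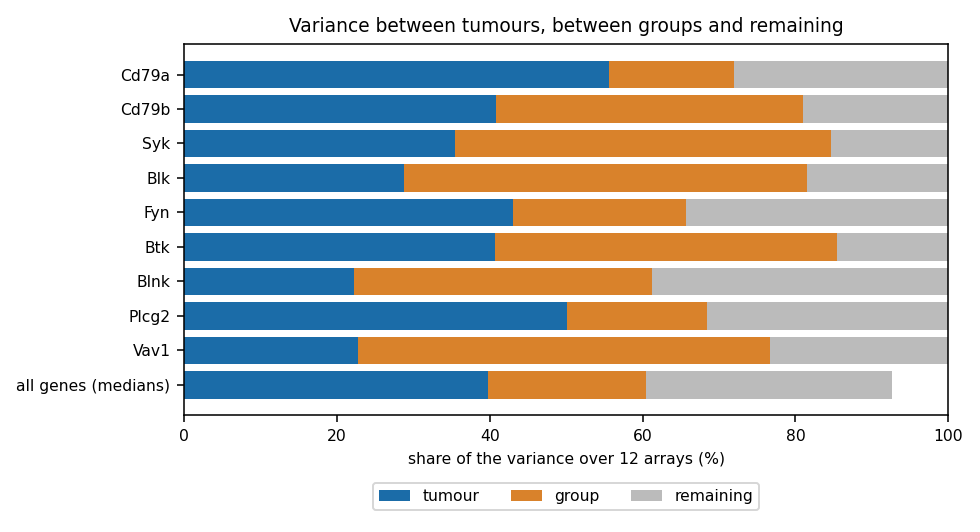
Share of the variance of each gene's log2 signal over 12 arrays that lay between tumours, between groups and in the remainder, in percent. The bottom bar gives the medians over 12961 genes, which need not add up to the whole, and Vav1, Blk and Syk have the largest share between groups.

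Once each tumour's mean was subtracted, the 9 genes varied together in subsets over the 12 arrays. Pearson's r was 0.87 between Cd79a and Fyn, 0.79 between Fyn and Blnk, 0.77 between Fyn and Btk and 0.75 between Cd79a and Btk. Cd79b and Syk had an r of 0.70 and Blk and Vav1 one of 0.81, while Syk and Plcg2 gave -0.62. Btk also had an r of 0.69 with Syk and 0.68 with Cd79b, so the subsets are not separate. These genes share arrays and normalization, and the values are descriptions. Of 12369 other named genes the most like Syk were Cep97 (r = 0.99) and Cntrl (0.97), both of centrosome proteins. Morf4l1 (0.96) and Retreg3 (0.95) were most like Cd79b, and Slc9a7 (0.98) and Ppcdc (0.97) most like Cd79a. Blk was matched best by Gtse1 (0.97) and Prkca (0.94), Fyn by Tdrd7 (0.98) and Rap1a (0.97), and Btk by Ngef (0.96) and Pik3cg (0.93). Suclg2 (0.93) and Dpm1 (0.92) came closest to Blnk, Draxin (0.96) and Sstr1 (0.93) to Plcg2, and Aldh2 (0.98) and Odf2 (0.97) to Vav1. Such values are the top of a long ranking over 12 arrays and would be high for many genes.

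Other genes of the pathway were followed in a list of 63 names, of which 46 were tested. In CHIR99021-treated against untreated BCR-negative cells 2 of 46 were called, Fcgr2b upward and Pik3ca downward, beside 1.06% of all genes called upward and 0.849% downward, and the median difference was -0.011. Pik3ca, a catalytic subunit of PI3K, fell to 7.32 ± 0.28 in treated cells, against 8.04 ± 0.27 in untreated BCR-negative cells (SD, n = 3), a difference of -0.72 (SE 0.11, adjusted p = 0.0268) with 3 of 3 tumours lower. Fcgr2b, the inhibitory Fc receptor that dampens BCR signals, rose to 8.46 ± 0.41 in treated cells, against 7.53 ± 0.50 in untreated BCR-negative cells, by 0.94 (SE 0.19, adjusted p = 0.0455), also in all 3 tumours. Both calls were lost with any 1 tumour left out, without the tumour block, and in the model that holds the mark, where the adjusted p was 0.142 for Pik3ca and 0.13 for Fcgr2b. The differences kept their direction there, at -0.68 for Pik3ca and 1.16 for Fcgr2b. With a tumour left out they lay between -0.80 and -0.66 and between 0.81 and 1.07. Fcgr2b, but not Pik3ca, also lost its limma call with no filter (adjusted p = 0.0527). The same held after quantile normalization (0.0593) and cyclic loess (0.0581). Its treated and untreated arrays overlap, whereas those of Pik3ca do not. The adaptor Pag1, which recruits the inhibitory kinase CSK, differed by 0.66 (adjusted p = 0.0729). Of the 4 PI3K genes 3 were below 0, with a median of -0.67, while the 12 tested genes listed as inhibitory split 7 above and 5 below. Those 12 include Ptprc (0.092), whose role is not only inhibitory. The 11 adaptors split 6 above and 5 below.

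In the other 5 comparisons limma called 0 of 46 pathway genes. At receptor loss 0.00772% of all genes were called, and 6 of 46 pathway genes had an unadjusted p under 0.05, beside 3.19% of all genes. For BCR-independent against BCR-negative cells the share called was 0.00772% of all genes, with 4 of 46 at an unadjusted p under 0.05, beside 5.99%. Against BCR-positive cells the BCR-independent clones had 0.0849% of all genes called and 9 of 46 pathway genes at an unadjusted p under 0.05, beside 9.61%. Treated BCR-negative cells gave 7 of 46 against BCR-positive cells, beside 15.6% (0.802% called), and 7 of 46 against BCR-independent cells, beside 12.3% (0.162% called).

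None of the genes with the 3 smallest p in these comparisons passed the test. At receptor loss they were Plcg1 (0.46), the inhibitory adaptor Dok1 (0.28) and the inhibitory receptor Cd72 (-0.61), all with an adjusted p of 0.999. BCR-independent against BCR-negative cells gave Pik3ca (-0.46), the NF-kB pathway adaptor Bcl10 (-0.54) and Fcgr2b (0.55), with adjusted p from 0.64 to 0.799. Fcgr2b was higher in tumours 2567 (0.93) and 2676 (0.87) and lower in tumour 2646 (-0.15). Against BCR-positive cells the genes were Cd72 (-0.73), the adaptor Grb2 (-0.35) and the protein kinase C gene Prkcb, with adjusted p from 0.335 to 0.356. Prkcb averaged 3.32 ± 0.039 in BCR-independent cells, at the level of the array medians, and 4.87 ± 1.37 in BCR-positive cells, so no size of difference is read from it. Its values in the tumours were -2.36, -0.0038 and -2.30. Treated BCR-negative against BCR-positive cells gave Cd72 (-0.95, adjusted p = 0.0733), Fcgr2b (0.83, adjusted p = 0.0761) and Pik3ca (-0.48, adjusted p = 0.0831). Treated against BCR-independent cells gave Pik3cg (-1.56), Pik3cd (-0.75) and Bcl10 (0.54), with adjusted p from 0.147 to 0.23.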

How the data were processed

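Total RNA of sorted lymphoma cells was measured on 12 arrays. The authors deposited a log2 value per probe set. Per the submitters' processing notes, RMA and Affymetrix Power Tools produced it; the versions were not given in the sources used here. Values were taken as deposited, with 0 columns left without a sample. Symbols of probe sets with 1 gene in the platform annotation were updated by gene ID through a RefSeq table of GRCm38.p6. Probe sets needed a signal over the 40th percentile of the array on 3 or more arrays, and the one with the highest mean stood for a gene (12961 genes). In R 4.3.3, limma 3.58.1 (lmFit, eBayes) modelled group and tumour ID, with 6 residual and 3.41 prior degrees of freedom. Calls required an adjusted p (Benjamini-Hochberg) under 0.05, after a check of the script on simulated data. The tumour ID pairs the arrays because, per the labels, arrays of 1 ID come from the same tumour. Deviations from group means correlated between 0.28 and 0.79 within a tumour and between -0.72 and 0.17 across tumours. The 3 deviations in a group sum to 0, which pushes values across tumours in that group below 0, so the second range is no support for the pairing. Within a tumour, the CHIR99021-treated cells and the BCR-independent clone came from different mixed cultures than the untreated BCR-negative cells. These mixtures also held BCR-positive cells. Whether a tumour's BCR-positive cells shared a mixed culture with its untreated BCR-negative cells is not stated. The p-values rest on how far group differences vary from tumour to tumour, as 1 spread per gene pooled over all 4 groups and moderated across genes. The 6 comparisons of a gene therefore share 1 SE, also where the 2 groups compared vary less than the others. With 1 array per group in each tumour, technical spread cannot be told apart from that variation. Precision is limited by how many arrays there are. Genes named are all members, called genes of the pathway list and its 3 smallest p per comparison, the 2 genes most like each member, check genes for the deleted heavy chain, and cell type markers: all measured B cell ones and those of other cell types above the 60th percentile on every array. Members and lists were chosen with earlier results of these data known. Alternatives were the filter, normalization, weights, trend, tumour block, probe set mean, 2 groups alone, the title mark as a term, and each tumour left out.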

Additional observations from a re-analysis of the deposited data

How the results depend on the processing

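Between CHIR99021-treated and untreated BCR-negative cells the number of members called was 0 as reported, and 1 (Syk) with the stricter filter at the 60th percentile, with an intensity trend and robust eBayes, after quantile normalization and after cyclic loess. In that order these settings called 246 of 8764, 215 of 12961, 222 of 12961 and 236 of 12947 genes in all. The number of members was 3 (Cd79b, Syk and Btk) with array weights, a setting that called 1635 of 12961 genes against 248, and the cause was not tested. In the other 5 comparisons it was 0 under every alternative run, and leaving out a tumour gave 0 in all 6. Of pathway genes 2 were called in that first comparison, against 0 without the replicate block for the tumour and 0 in the model with the title mark. The count was 1 of 56 with no filter, where 196 of 18820 genes were called in all. After quantile normalization and after cyclic loess it was 1 of 46. In all of these settings the gene was Pik3ca. With array weights the count was 6 of 46, where 1635 of 12961 genes were called in all. Each of the 3 sets without a tumour gave 0, where 3 residual degrees of freedom remain. Of 702 alternative values of the 54 member differences, 674 kept direction and side of the threshold, 7 passed the threshold in addition and 21 changed sign. In 18 of these 21 both estimates were smaller than their SE. The other 3 were Fyn at receptor loss without tumour 2646 (-0.072, in a range over the 3 tumours up to 0.87), Btk in treated against BCR-positive cells in the model with the title mark (0.051) and Plcg2 in treated against BCR-independent cells without tumour 2567 (-0.0296, in a range up to 0.45). Without the replicate block the paired arrays gave 12 called genes in the treated against untreated comparison, and 0 members in any comparison. Signals near the array medians, as for Blk, limit what can be resolved.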
